A study of Homo sapiens with 14 samples.

Results

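Fibroblasts kept in an ATR inhibitor (ATRi) were compared at 22 h and at 19 h for the RNA polymerase II (RNAPII) bound along each gene. The comparison rests on 4 of the study's 14 chromatin immunoprecipitation libraries, which are total RNAPII in ATRi at 22 h, total RNAPII in ATRi at 19 h, and Ser2-phosphorylated RNAPII in ATRi at the same hours. Its members were the nuclear genes whose mean over those 4 libraries reached 1 RPM (a gene's reads scaled to the size of the library). That was the case for 12040 of 12411 nuclear genes in a table of 12425, and 371 genes lay under the minimum. The cells were BJ hTERT, human foreskin fibroblasts immortalised with an introduced copy of the telomerase gene TERT. According to the labels, total RNAPII was captured with an antibody to the N-terminus of its largest subunit RPB1, and Ser2 RNAPII with an antibody to RPB1 phosphorylated on serine 2. The same 2 hours in cells given the solvent DMSO instead of ATRi serve as the solvent control, and the series also holds 16 h libraries of both treatments and untreated 14 h libraries. Each group was a single library, so nothing here measures the spread between cultures, and neither the inhibitor's name, the event from which the hours were counted nor any synchronisation is given in the sources used here.

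ATR is a kinase that senses stretches of single-stranded DNA at replication forks and restrains origin firing and entry into mitosis during S phase, chiefly through its target CHEK1. RNAPII carries a repeated tail on RPB1 that is phosphorylated on serine 2 by elongation kinases as the enzyme moves through a gene, so Ser2 signal follows elongating polymerase, while an N-terminal antibody also captures paused and initiating enzyme. Dividing cells transcribe their genes in waves: E2F factors drive the genes for DNA replication around the start of S phase, and the MuvB complex with B-MYB and FOXM1 drives the genes for mitosis later.

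The 4 ATRi libraries held 23928707 reads (total, 22 h), 46533646 reads (total, 19 h), 62368915 reads (Ser2, 22 h) and 36316086 reads (Ser2, 19 h), within a range of 17181179 to 62368915 over the series. The share of reads inside nuclear genes differed between the hours, at 57.4% at 22 h and 70.8% at 19 h for total RNAPII, and 44.3% at 22 h and 65.6% at 19 h for Ser2. In DMSO it was 42.8% at 22 h and 72.0% at 19 h for total, and 40.0% at 22 h and 63.5% at 19 h for Ser2. The median gene accordingly changed by -0.33 (total) and -0.63 (Ser2) on the log2 RPM scale in ATRi. Every change below is therefore a log2 ratio of RPM + 0.5 at 22 h over 19 h from which the median gene's own change was subtracted, and "higher", "lower", "rose" and "fell" mean relative to the median gene. The RPM values are not divided by gene length, so they are not compared between genes, and between libraries they carry the shift of the median gene. The change also depended on read density: in the decile of genes with the fewest reads per kb the median change was +0.42 (total) and +0.79 (Ser2), against +0.02 and -0.23 in the densest decile. For that reason, the calls with that trend removed are given beside the lists and named genes where they differ. How far these differences between libraries account for single results was not tested. Of the fibroblast markers, 13 of 15 listed genes were measured, of the keratinocyte markers 1 of 12, of the endothelial markers 2 of 9, of the melanocyte markers 1 of 6 and of the blood markers 0 of 10. The endothelial genes VWF and TEK and the melanocyte gene MITF rose in the limma test described below, by 1.081, 0.88 and 0.74, but did not pass with the density trend removed (adjusted p = 0.21, 0.63 and 0.82).

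Relative to the median gene, ATRi cells had more RNAPII at 22 h than at 19 h on 14 of 81 measured mitotic genes. That was 17.3% of them in the limma test described below, against 8.43% of all genes. The excess depended on single libraries, as given below. ATRi cells had less on 15 of 74 measured genes of DNA replication, or 20.3%, against 3.2% of all genes. The lowest by rank were the protease inhibitor genes SERPINE2 and SERPINB2 and the host transcript of miR-31, with NFKB2 and RELB among the 12 lowest. At 1.5-fold, 489 genes (4.06%) were higher and 66 genes (0.548%) lower in total RNAPII at 22 h than at 19 h, and 1097 genes (9.11%) were higher and 92 (0.764%) lower in Ser2. Both antibodies placed 402 genes (3.34%) at least 1.5-fold higher and 21 genes (0.174%) at least 1.5-fold lower. Across the 12040 genes the total and Ser2 changes correlated with Pearson r = 0.756 and Spearman rho = 0.664, a description of 2 pairs of libraries that share read density as a common influence. The counts depended on read density: with the density trend removed, 103 genes (0.855%) were higher and 120 (0.997%) lower in total, and 66 (0.548%) higher and 155 (1.29%) lower in Ser2. On that scale both antibodies placed 32 genes (0.266%) at least 1.5-fold higher and 63 genes (0.523%) at least 1.5-fold lower.

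For a test, the 2 antibodies were used in place of replicates in a limma fit over the 6 ATRi libraries at 16, 19 and 22 h, with the antibody as a block and 2 residual degrees of freedom. Its p-values measure how far the antibodies moved alike between the hours, not the spread between cultures, and the 2 antibodies may have been applied to the same chromatin. At an adjusted p under 0.05 (limma, Benjamini-Hochberg over all 12040 genes), 1015 genes (8.43%) rose and 385 genes (3.2%) fell at 22 h against 19 h. Before adjustment, 1945 genes (16.2%) were higher and 1746 (14.5%) lower with p under 0.05. The balance depended on the scaling: 263 rose and 6840 fell on the deposited RPM with no centring, 934 (7.76%) rose and 981 (8.15%) fell with the density trend removed, 1258 rose and 241 fell with median-of-ratios size factors. In all, 407 genes (3.38%) rose and 321 genes (2.67%) fell on both the centred and the trend-removed scale. It also depended on single libraries, since leaving out total 22 h gave 645 higher and 37 lower and leaving out Ser2 22 h gave 457 and 55. Leaving out total 19 h gave 2366 and 2225, and leaving out a 16 h library gave 676 or 703 lower.

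**Figure D1:**
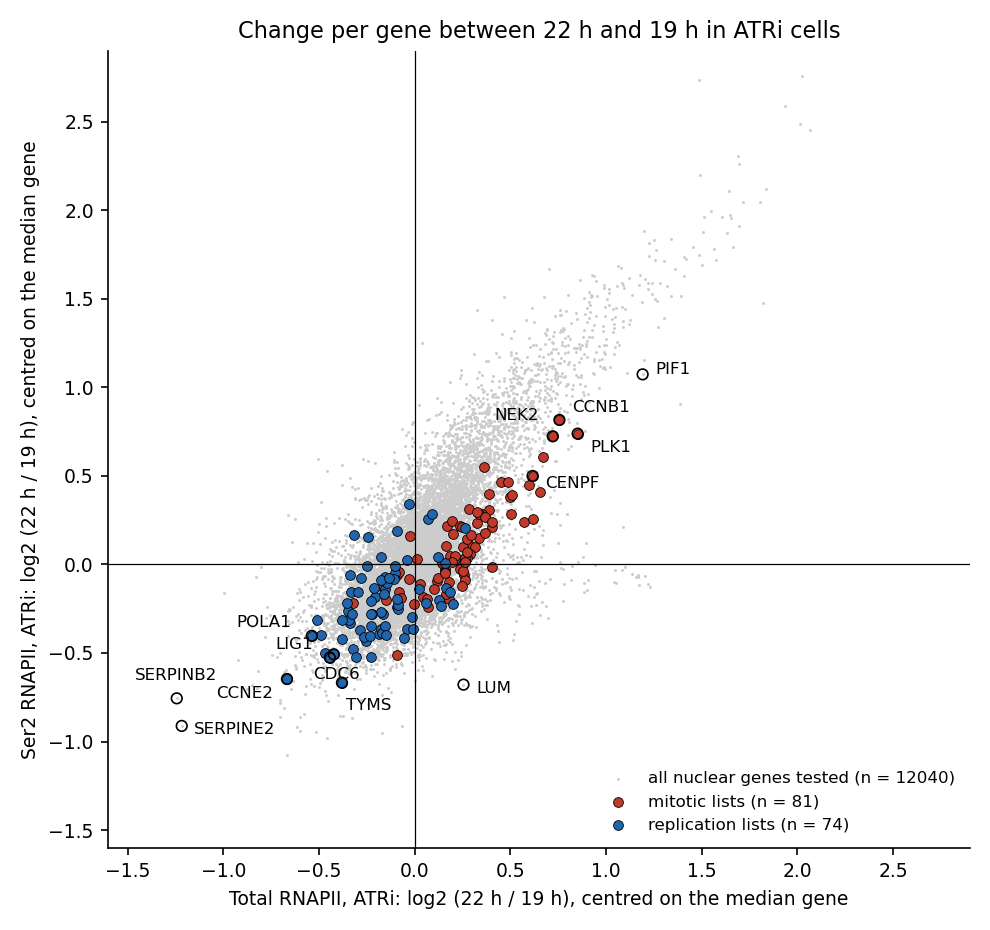
Change of every gene between 22 h and 19 h in ATRi cells, with total RNAPII on the x axis and Ser2 RNAPII on the y axis (log2 of 22 h over 19 h, centred on the median gene). Each grey point is 1 of 12040 genes, red points are the 81 measured mitotic genes, blue points the 74 measured replication genes, and black circles mark named genes. Red points lie mostly to the right of the vertical zero line and blue points mostly in the lower left, while SERPINE2 and SERPINB2 stand at the far left.

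Some genes for mitosis gained RNAPII relative to the median gene. Of 91 genes in 4 mitotic lists (kinases and cyclins, spindle and cytokinesis, kinetochore, condensin and topoisomerase), 81 were measured, 14 rose and 0 fell in the limma test, all 14 also with the density trend removed. That is 17.3% of them, against 8.43% of all genes that rose, and on both scales 17.3% against 3.38%. Their median change was +0.25 in total and +0.06 in Ser2, against 0 for all genes by construction, and 69 of 81 lay above the median gene in total and 51 in Ser2. In bulk chromatin, more cells in a stage and more RNAPII per cell cannot be told apart. The direction depended on centring: with no centring 0 of the 81 rose and 18 fell, at a median of -0.33. On that scale 263 of all 12040 genes rose and 6840 fell. The count of 14 came to 50 with the trend removed, where 7.76% of all genes rose. It came to 4 when a background density was subtracted, where 103 of all 12040 genes rose. Fits without 1 of the 19 h or 22 h libraries leave 1 library at an hour. Their joint medians were +0.07 without total 22 h and +0.17 without Ser2 22 h. They were +0.22 without Ser2 19 h and +0.02 without total 19 h, against +0.12 with all 6 libraries. Fewer of the 81 rose without either 22 h library, and some fell without total 19 h. The share that rose was below that of all genes without total 22 h, and about equal to it without total 19 h.

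CCNB1, the cyclin that activates CDK1 for mitotic entry, stood at 23.0 RPM at 22 h against 16.98 RPM at 19 h in total RNAPII, and at 13.9 RPM at 22 h against 12.1 RPM at 19 h in Ser2. Both hours' reads were ample (550 and 790 in total, 864 and 439 in Ser2). The centred change was 0.76 in total (95% counting interval 0.61 to 0.93) and 0.82 in Ser2 (0.66 to 0.99). In the joint fit it was 0.75 ± 0.11 (SE, adjusted p = 0.00526, limma). Those intervals cover counting error only. PLK1, the polo kinase that drives centrosome maturation and mitotic entry, had 19.0 RPM at 22 h against 13.1 RPM at 19 h in total, and 11.9 RPM at 22 h against 10.96 RPM at 19 h in Ser2. In both genes each antibody was higher at 22 h even before centring, as it was in NEK2 but in no other of the 81 mitotic genes. CENPF, a kinetochore protein made in G2, illustrates this: 91.5 RPM at 22 h against 74.9 RPM at 19 h in total, but 65.0 RPM at 22 h against 71.0 RPM at 19 h in Ser2, where the median gene dropped further (centred change 0.50).

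The kinase and cyclin list held 21 measured genes of 22, with medians of +0.29 in total and +0.24 in Ser2. In it 7 genes rose, against 8.43% of all genes. Besides CCNB1 and PLK1 these were NEK2, a kinase that separates centrosomes (0.69 ± 0.11, adjusted p = 0.00937), and CCNF, an SCF ubiquitin ligase subunit of G2 (0.49 ± 0.09, adjusted p = 0.0133). The others were AURKA, the centrosomal Aurora kinase (0.42 ± 0.10, adjusted p = 0.031), and the CDK-activating phosphatases CDC25C (0.42 ± 0.09, adjusted p = 0.0228) and CDC25B (0.36 ± 0.10, adjusted p = 0.0477). CDK1, the mitotic kinase itself, was at +0.18 in total and -0.10 in Ser2, and CCNA2, the cyclin of S and G2 phase, at +0.12 and -0.09. Neither passed the test (adjusted p = 0.986 and 0.922, limma). The list was therefore not uniform.

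Spindle and cytokinesis genes had medians of +0.30 in total and +0.15 in Ser2, and 6 of 31 measured members rose, against 8.43% of all genes. CENPE, the kinesin that carries chromosomes to the spindle equator, had 90.7 RPM at 22 h against 71.6 RPM at 19 h in total and 68.0 RPM at 22 h against 68.8 RPM at 19 h in Ser2. It changed by 0.60 ± 0.08 (adjusted p = 0.00462, limma). KIF18A, a kinesin that limits microtubule length, changed by 0.50 ± 0.09, and DLGAP5, a spindle stabiliser, by 0.44 ± 0.09. GTSE1, a microtubule-binding protein, changed by 0.42 ± 0.09, KIF14, a kinesin of cytokinesis, by 0.40 ± 0.10, and INCENP, the scaffold of Aurora B, by 0.36 ± 0.09. For these 5 the adjusted p ran from 0.0159 to 0.041 (limma). Kinetochore genes lay near the median gene, at +0.07 in total and -0.06 in Ser2, and CENPF was the single one of 19 that rose (0.52 ± 0.09, adjusted p = 0.00882). The 10 condensin and topoisomerase genes had medians of +0.20 in total and -0.04 in Ser2, and 0 passed in either direction (limma, with 1 higher and 1 lower by the unadjusted p). With the trend removed, 15 of the 21 kinase and cyclin genes, 24 of the 31 spindle genes, 6 of the 19 kinetochore genes and 5 of the 10 condensin and topoisomerase genes rose, against 7.76% of all genes. In the last 2 lists the Ser2 median turned positive on that scale, at +0.08 and +0.12.

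Promoters of CCNB1, PLK1 and CENPF, which rose, and of CDC6 and LIG1, which fell, are shown as examples. The shares given after them cover all listed members with a promoter, whether or not they passed the test. Whether a motif goes with the direction of change was not tested. The windows are RefSeq promoters on GRCh38.p14, 250 bases before to 50 after the start, read along the gene's strand. Capitals mark the motifs searched: for the mitotic genes the CCAAT box (CCAAT, or ATTGG on the other strand) and the cell-cycle homology region (CHR, here TTTGAA or TTCGAA), and for the replication genes the E2F motif (TTTCCCGC or TTTGGCGC).
CCNB1 (chr5:69166900-69167199, plus strand): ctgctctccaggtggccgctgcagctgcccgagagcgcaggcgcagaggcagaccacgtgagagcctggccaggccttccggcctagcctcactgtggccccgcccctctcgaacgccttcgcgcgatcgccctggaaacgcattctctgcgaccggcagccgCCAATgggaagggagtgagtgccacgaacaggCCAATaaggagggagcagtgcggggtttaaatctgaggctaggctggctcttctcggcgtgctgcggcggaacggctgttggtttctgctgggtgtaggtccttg
PLK1 (chr16:23678639-23678938, plus strand): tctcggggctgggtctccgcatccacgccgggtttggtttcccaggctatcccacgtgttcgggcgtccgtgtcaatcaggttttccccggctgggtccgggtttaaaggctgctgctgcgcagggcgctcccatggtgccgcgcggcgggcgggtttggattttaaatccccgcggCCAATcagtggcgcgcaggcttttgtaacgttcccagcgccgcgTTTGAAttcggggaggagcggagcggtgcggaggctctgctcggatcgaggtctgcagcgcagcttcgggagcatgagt
CENPF (chr1:214602945-214603244, plus strand): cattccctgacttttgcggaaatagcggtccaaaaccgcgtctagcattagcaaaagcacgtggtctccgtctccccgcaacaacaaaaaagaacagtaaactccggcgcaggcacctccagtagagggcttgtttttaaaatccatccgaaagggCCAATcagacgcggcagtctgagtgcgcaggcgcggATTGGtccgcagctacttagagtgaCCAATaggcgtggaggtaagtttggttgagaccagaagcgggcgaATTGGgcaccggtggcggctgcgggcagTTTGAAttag
CDC6 (chr17:40287629-40287928, plus strand): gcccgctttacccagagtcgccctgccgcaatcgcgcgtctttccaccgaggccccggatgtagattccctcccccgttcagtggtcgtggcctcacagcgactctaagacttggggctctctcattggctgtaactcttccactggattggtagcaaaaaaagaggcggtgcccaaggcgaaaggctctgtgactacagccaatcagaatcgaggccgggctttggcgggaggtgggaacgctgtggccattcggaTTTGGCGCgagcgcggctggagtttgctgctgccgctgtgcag
LIG1 (chr19:48170295-48170594, minus strand): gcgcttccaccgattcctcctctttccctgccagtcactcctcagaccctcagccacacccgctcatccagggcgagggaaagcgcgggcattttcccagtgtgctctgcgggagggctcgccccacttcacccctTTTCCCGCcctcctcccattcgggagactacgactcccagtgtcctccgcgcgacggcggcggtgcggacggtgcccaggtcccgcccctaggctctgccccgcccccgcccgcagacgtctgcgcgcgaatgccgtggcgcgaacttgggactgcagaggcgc
CCNB1 holds CCAAT at window positions 164 and 196 and no exact CHR. PLK1 holds CCAAT at 178 and TTTGAA at 222. CENPF holds 4 CCAAT boxes and TTTGAA at 291. CDC6 holds TTTGGCGC at 258 and LIG1 TTTCCCGC at 137. CDC6 also holds 3 CCAAT boxes, which are left in lower case above, and LIG1 holds 0. All motifs were searched on both strands, and none of them contains another. A CHR was found in 48 of the 69 mitotic genes with a promoter in the table (69.6%), in 7 of 62 replication genes (11.3%), in 11.1% of the 8586 tested genes with a promoter and in 16.6% of all 27305 promoters. The E2F motif was in 3 of 69 mitotic genes (4.35%), in 22 of 62 replication genes (35.5%), in 3.91% of tested genes and in 2.31% of all promoters. CCAAT was in 49 of 69 mitotic genes (71.0%), in 34 of 62 replication genes (54.8%), in 36.6% of tested genes and in 35.7% of all promoters. These are matches of letters in a window, not measured binding sites.

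Replication genes moved the other way. Of 84 genes in 4 lists (E2F, RB and cyclin E, licensing and MCM helicase, polymerases and fork proteins, nucleotide supply), 74 were measured, 15 fell and 0 rose in the limma test, and all 15 fell with the density trend removed as well. That is 20.3% of them, against 3.2% of all genes that fell. The trend-removed scale called 20 lower and 2 higher, against 8.15% and 7.76% of all genes. Their median change was -0.18 in total and -0.23 in Ser2, with 56 of 74 genes below the median gene in both antibodies, against 36.6% of all genes. The count of 15 was 1 with a background density subtracted, 64 with no centring and 9 with median-of-ratios size factors. In those settings 27, 6840 and 241 of all 12040 genes fell. Fewer of the 74 fell without the total 22 h or the Ser2 22 h library, and more without the total 19 h library. Those fits leave 1 library at an hour. Their joint medians were -0.239, -0.248 and -0.312, against -0.235 with all 6 libraries.

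CCNE2, the cyclin E paralog that drives entry into S phase, fell most among them, to 28.3 RPM at 22 h against 57.1 RPM at 19 h in total and to 17.01 RPM at 22 h against 41.8 RPM at 19 h in Ser2. Its joint change was -0.69 ± 0.09 (adjusted p = 0.00369, limma). NDUFAF6 shares 17.1% of its span, and reads there cannot be assigned to 1 gene. E2F7, an atypical E2F that represses the others, fell by 0.43 on the log2 scale (SE 0.12, adjusted p = 0.047), while E2F1, the activator that starts the wave, was at -0.23 in total and -0.21 in Ser2 without passing (adjusted p = 0.133). CDC6, the licensing factor that helps load the MCM helicase, had 26.3 RPM at 22 h against 44.6 RPM at 19 h in total and 17.04 RPM at 22 h against 38.0 RPM at 19 h in Ser2. It fell by 0.50 on the log2 scale (SE 0.10, adjusted p = 0.0162). Of the same list CDC45, a subunit of the active helicase (-0.48 ± 0.11), MCM2 (-0.36 ± 0.09) and MCM8 (-0.34 ± 0.08) also fell, and MCM3 did not pass (-0.45 ± 0.13, adjusted p = 0.0602, limma) except with the trend removed (adjusted p = 0.0329).

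LIG1, the ligase that joins Okazaki fragments, stood at 37.3 RPM at 22 h against 64.1 RPM at 19 h in total and at 24.5 RPM at 22 h against 55.2 RPM at 19 h in Ser2. The joint fit gave -0.52 ± 0.09 (adjusted p = 0.0094, limma). POLA1, the catalytic subunit of the primase-coupled polymerase alpha, fell to 81.0 RPM at 22 h against 148 RPM at 19 h in total. Its change was -0.51 ± 0.09, and -0.86 with the density trend removed. POLA1 lies on chromosome X, whose genes had medians of -0.19 in total and -0.31 in Ser2 on the trend-removed scale. How much of the larger value that shift accounts for was not tested. POLD1 (-0.45 ± 0.09), POLA2 (-0.41 ± 0.10) and the histone chaperone ASF1B (-0.44 ± 0.10) completed the 5 of 24 polymerase and fork genes that fell, against 3.2% of all genes. In the nucleotide list 4 of 15 genes fell, among them TYMS, which makes thymidylate (-0.56 ± 0.11), CTPS1, which makes CTP (-0.52 ± 0.09), and CAD, which starts pyrimidine synthesis (-0.38 ± 0.10). For these 3 the adjusted p ran from 0.00946 to 0.0409 (limma). ENOSF1 shares 20.4% of the span of TYMS on the opposite strand, and the reads carry no strand. The 4 list medians in total RNAPII ran from -0.23 for polymerases to -0.09 for nucleotide supply.

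**Figure D2:**
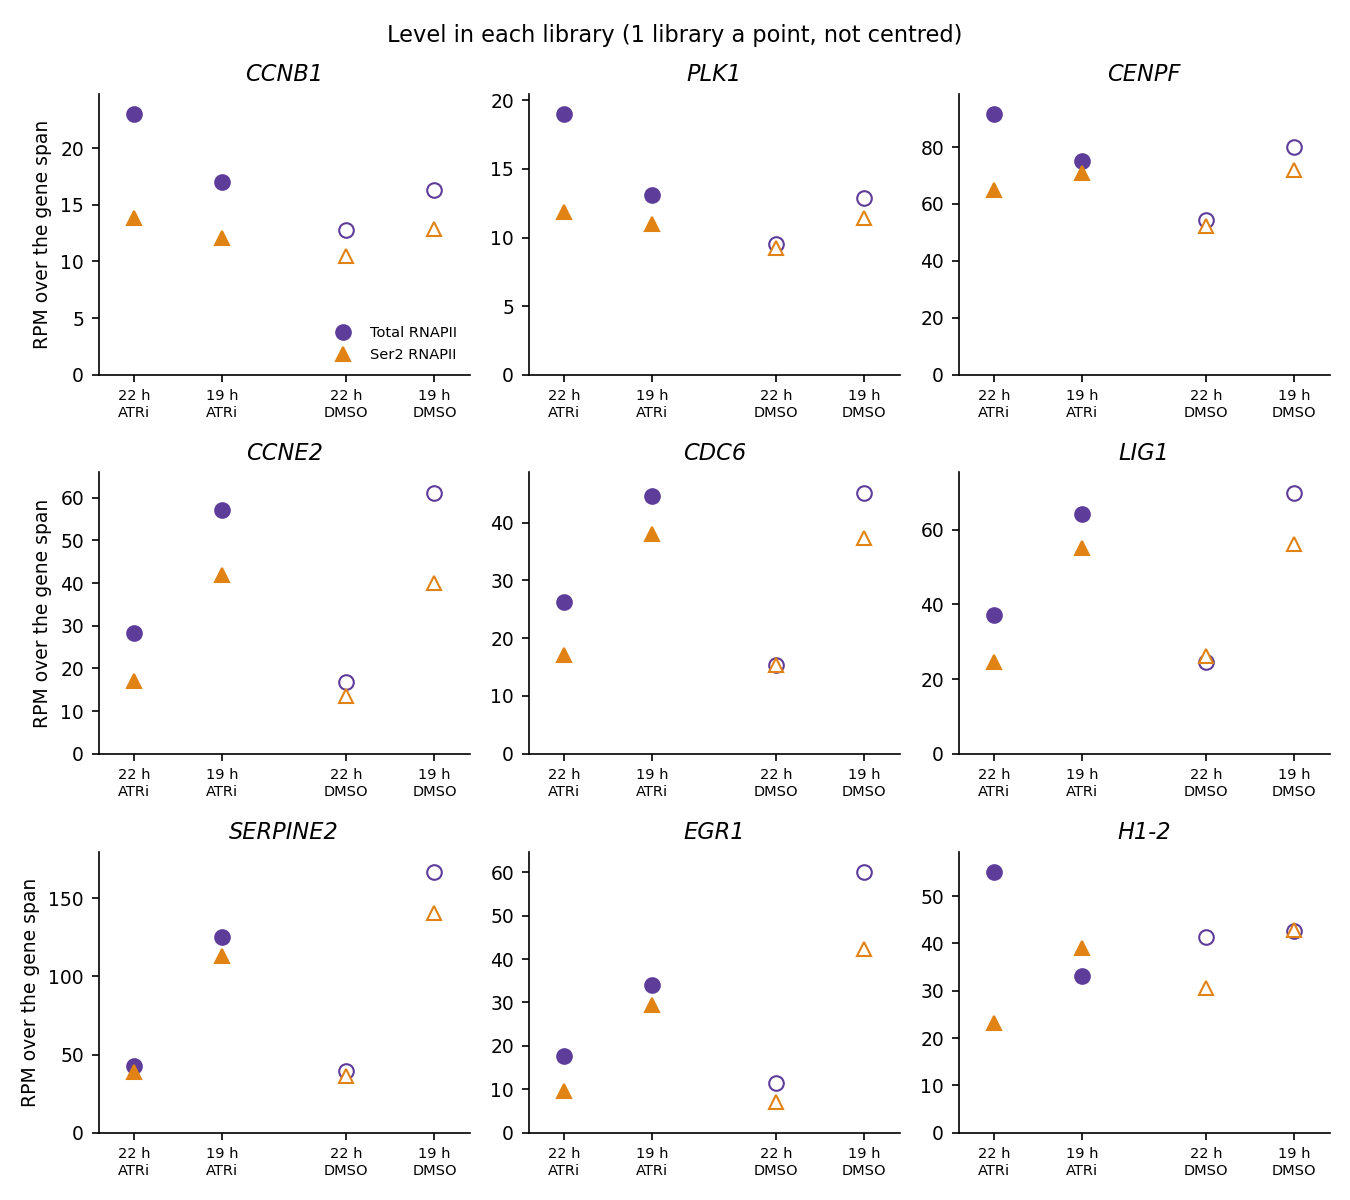
Level of 9 genes in single libraries (y axis, RPM over the gene span, not centred; circles total RNAPII, triangles Ser2 RNAPII; filled ATRi, open DMSO; 1 library a point). In ATRi, total RNAPII on CCNB1, PLK1 and CENPF is higher at 22 h than at 19 h, while CCNE2, CDC6, LIG1, SERPINE2 and EGR1 are lower at 22 h with both antibodies and H1-2 is higher in total and lower in Ser2.

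In the 16 h and 14 h libraries the same genes placed the 22 h values in their course. In ATRi cells, total RNAPII on CCNB1 was 13.2 RPM at 16 h, 16.98 RPM at 19 h and 23.0 RPM at 22 h, after 5.35 RPM in untreated cells at 14 h. CCNE2 was highest at 19 h, with 36.6 RPM at 16 h, 57.1 RPM at 19 h and 28.3 RPM at 22 h in total, after 29.5 RPM at 14 h. SERPINE2 likewise peaked at 19 h, with 59.8 RPM at 16 h, 125 RPM at 19 h and 42.6 RPM at 22 h in total, after 42.4 RPM at 14 h. The median gene moved as well, with 20.95 RPM at 14 h, 26.6 RPM at 16 h, 36.2 RPM at 19 h and 29.2 RPM at 22 h. As a ratio to the median gene, CCNB1 was 0.256 at 14 h, 0.495 at 16 h, 0.470 at 19 h and 0.788 at 22 h. On the same measure CCNE2 was 1.41, 1.37, 1.58 and 0.971 at those hours, and SERPINE2 was 2.02, 2.25, 3.47 and 1.46. Relative to the median gene, the 22 h ratio of CCNE2 and SERPINE2 was thus below that of each earlier hour.

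Outside the cell-cycle lists, SERPINE2, MIR31HG and SERPINB2 led the losses by rank, in that order. SERPINE2, which encodes the protease inhibitor nexin-1, had 42.6 RPM at 22 h against 125 RPM at 19 h in total and 38.5 RPM at 22 h against 113 RPM at 19 h in Ser2. The joint fit gave -1.10 ± 0.11 (adjusted p = 0.000978, limma). SERPINB2, which encodes the plasminogen activator inhibitor PAI-2, had 51.7 RPM at 22 h against 155 RPM at 19 h in total and 54.4 RPM at 22 h against 143 RPM at 19 h in Ser2, and -1.03 ± 0.17 in the fit (adjusted p = 0.00937). Total RNAPII fell further than Ser2 in both, with centred changes of -1.22 against -0.91 and of -1.24 against -0.76. The 2 were the members that fell among 14 measured genes of matrix remodelling (proteases, their inhibitors and related enzymes), where 0 rose and the medians were -0.28 in total and -0.23 in Ser2. Of all genes, 8.43% rose and 3.2% fell. On the trend-removed scale the Ser2 median of the matrix remodelling list was 0.001, and 2 rose and 3 fell, against 7.76% and 8.15% of all genes. In DMSO, SERPINE2 had 39.7 RPM at 22 h against 166 RPM at 19 h in total, a centred change of -1.15.

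The other genes that led the losses had several roles. ITGA2, a collagen-binding integrin subunit, stood at 192 RPM at 22 h against 443 RPM at 19 h in total and at 171 RPM at 22 h against 432 RPM at 19 h in Ser2. Its joint change was -0.82 ± 0.14 (adjusted p = 0.00961, limma). MOCS2, whose product makes the molybdenum cofactor, lies 900 bp from ITGA2 and changed alike, by -0.82 in total and -0.70 in Ser2. MIR31HG, the host transcript of miR-31, changed by -0.93 ± 0.12, CDH2, which encodes N-cadherin, by -0.82 ± 0.10, and TGM2, tissue transglutaminase, by -0.80 ± 0.11, with adjusted p from 0.00297 to 0.00499 (limma). PTGS1, which encodes the cyclooxygenase COX-1, changed by -0.68 ± 0.12 (adjusted p = 0.0124). ABCC3, which encodes a multidrug resistance transporter, and the zinc-finger gene ZNF354C changed by -0.77 ± 0.10 and -0.71 ± 0.11 (adjusted p = 0.00428 and 0.00611). Each of these genes lay below the median gene by at least 0.60 in both antibodies.

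Of the NF-kB and interferon list, 19 of 32 genes were measured, with medians of -0.08 in total and -0.28 in Ser2. In the test 2 fell and 1 rose, against 3.2% and 8.43% of all genes. With the trend removed 6 fell and 2 rose, against 8.15% and 7.76%. NFKB2, the precursor of the p52 subunit, had 26.2 RPM at 22 h against 50.5 RPM at 19 h in total and 13.1 RPM at 22 h against 37.6 RPM at 19 h in Ser2. It changed by -0.76 ± 0.11 (adjusted p = 0.0052, limma), and TNFAIP3, the feedback inhibitor A20, changed by -0.58 ± 0.10 (adjusted p = 0.0106). RELB, the partner of p52, came from the ranking by size and not from the list. It had 43.0 RPM at 22 h against 87.2 RPM at 19 h in total and changed by -0.78 ± 0.11 (adjusted p = 0.00539). IL6, an inflammatory cytokine, was at -0.17 in total and -0.95 in Ser2 and did not pass (adjusted p = 0.0541) except with the trend removed (adjusted p = 0.00433). NFKB1, the precursor of the p50 subunit, was likewise past the threshold on that scale alone (-0.28 ± 0.08, adjusted p = 0.0684 and, with the trend removed, 0.039). The 1 gene that rose, the interferon target MX1, did not pass with the density trend removed (adjusted p = 0.37).

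Immediate early genes, which respond to growth factors within minutes, had medians of +0.12 in total and -0.17 in Ser2 over 28 measured genes, and the Ser2 median was +0.03 with the trend removed. EGR1, a zinc-finger factor of this class, was the 1 member that passed, at 17.7 RPM at 22 h against 34.1 RPM at 19 h in total and 9.59 RPM at 22 h against 29.4 RPM at 19 h in Ser2. The fit gave -0.80 ± 0.17 (adjusted p = 0.0222, limma). In the list, 3 members rose and 2 fell once the trend was removed, against 7.76% and 8.15% of all genes. On the centred scale 3.2% of all genes fell.

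Matrix genes were split. Of 33 measured collagen and matrix genes, 4 rose and 6 fell, against 8.43% and 3.2% of all genes. On both scales 2 rose and 6 fell, against 3.38% and 2.67% of all genes. On the trend-removed scale by itself, 9 rose and 7 fell, against 7.76% and 8.15%. TNC, the glycoprotein tenascin-C, had 162 RPM at 22 h against 302 RPM at 19 h in total and 116 RPM at 22 h against 288 RPM at 19 h in Ser2. It changed by -0.66 ± 0.09 (adjusted p = 0.00479, limma). COL12A1, a fibril-associated collagen, and COL4A1, a basement-membrane collagen, changed by -0.56 ± 0.10 and -0.52 ± 0.10 (adjusted p = 0.0102 and 0.0142). BGN, the proteoglycan biglycan, the collagen gene COL4A2 and the lysyl oxidase gene LOXL2 also fell, by 0.53, 0.47 and 0.44. COL8A1, of a short-chain collagen, and the fibrillin gene FBN2 rose on both scales, by 0.94 and 0.83, while the fibulin genes FBLN2 and FBLN5 rose on the centred scale alone. The list's median was +0.17 in total and -0.18 in Ser2. LUM, the proteoglycan lumican, had the lowest Ser2 change minus total change in a ranking made after the values were seen. That ranking took genes with a symbol, at least 5 kb, at least 0.5 RPM per kb and at most 10% of the span shared. It had 33.7 RPM at 22 h against 35.5 RPM at 19 h in total, and 13.02 RPM at 22 h against 32.9 RPM at 19 h in Ser2. The centred changes were +0.26 and -0.68. Decorin, DCN, which lies next to LUM, showed +0.67 in total and -0.21 in Ser2. Of 27 actin and contractile genes 1 rose and 2 fell, among them TAGLN, the actin-bundling transgelin, at 21.1 RPM at 22 h against 40.1 RPM at 19 h in total (-0.61 ± 0.10, adjusted p = 0.00709). The other 2 were MYH10, a nonmuscle myosin heavy chain, which rose by 0.61, and TLN1, talin, which fell by 0.39 on the log2 scale, and with the trend removed 4 of the list rose and 5 fell.

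The antibodies parted most clearly on short genes for histones and small nuclear RNAs, where total RNAPII was higher at 22 h and Ser2 was not. All 23 measured replication-dependent histone genes of 60 listed lay above the median gene in total (median +0.61), and 0 of 23 lay above it in Ser2 (median -0.23). In total 12 of them were at least 1.5-fold higher, against 4.06% of all genes. H1-2, a linker histone, had 55.0 RPM at 22 h against 33.2 RPM at 19 h in total and 23.3 RPM at 22 h against 39.0 RPM at 19 h in Ser2, a change of +1.05 and -0.11. H1-4, its neighbour in the family, had 54.4 RPM at 22 h against 36.3 RPM at 19 h in total and 24.8 RPM at 22 h against 40.9 RPM at 19 h in Ser2. In no histone gene did Ser2 change as much upward as total, and the median difference of Ser2 minus total was -0.80, against +0.03 over all genes. Density bore on the size of this: these are among the densest genes, at a median of 48.0 RPM per kb against 0.897 for all tested genes. With the density trend removed the medians were +0.13 in total and -0.06 in Ser2. When a background density was subtracted instead, they were +0.77 and +0.01. The limma test, which asks for agreement of the antibodies, called 0 of the 23 in either direction (0 and 0 at an unadjusted p under 0.05 too). Of all genes, 8.43% rose and 3.2% fell in that test. With the trend removed 3 rose, H1-2 among them (adjusted p = 0.0494), against 7.76% of all genes. Histone genes have near-identical copies, and how the authors' counting divided reads among them is not given in the sources used here.

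Spliceosomal snRNA genes other than RNU6ATAC behaved alike. RNU4-2, a gene of the U4 RNA, had 23.6 RPM at 22 h against 12.4 RPM at 19 h in total and 8.99 RPM at 22 h against 15.5 RPM at 19 h in Ser2, a change of +1.23 and -0.13. RNU5B-1, a U5 gene, changed by +1.22 and -0.11. Over the 7 measured snRNA genes of 22 listed the medians were +1.17 in total and -0.07 in Ser2, and +0.48 and +0.06 with the density trend removed. The 6 genes above the median gene in total are transcribed by RNAPII, and RNU6ATAC, which belongs to RNA polymerase III, was at -0.53 in total and +0.02 in Ser2. In DMSO the same list had medians of +1.23 in total and +0.38 in Ser2. Copies of U4 and U5 genes are also near-identical, which leaves single genes uncertain.

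**Figure D3:**
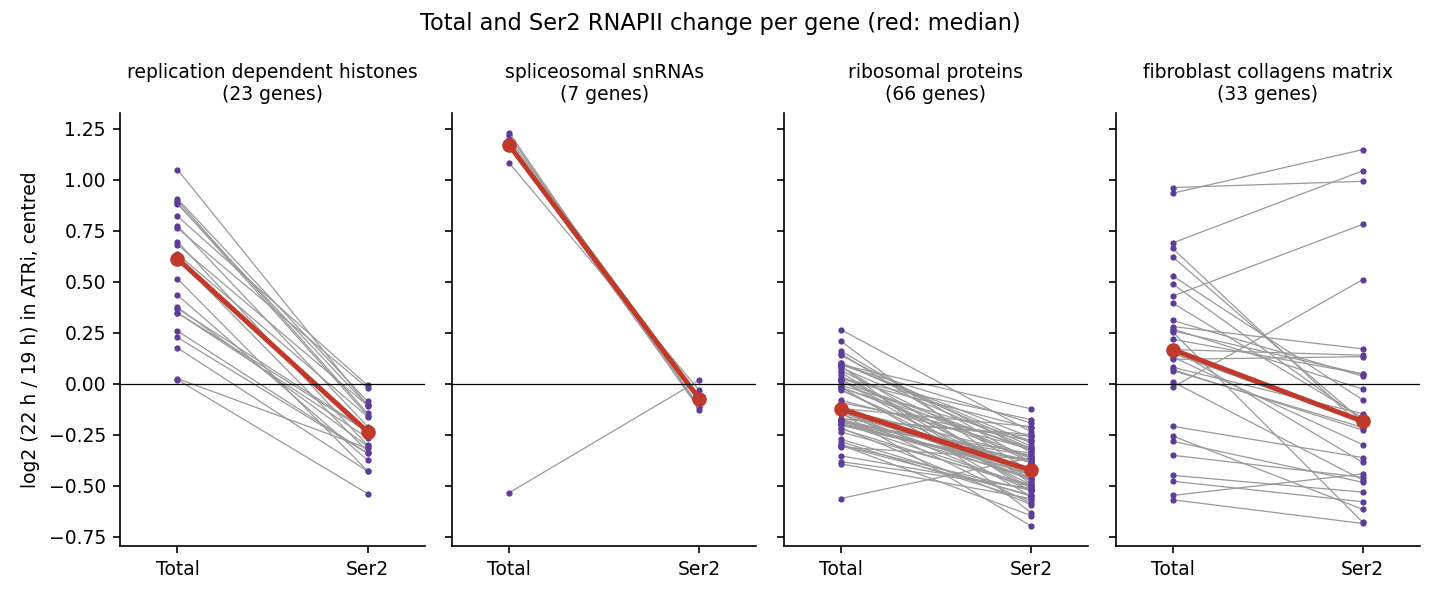
Change between 22 h and 19 h in ATRi for each gene of 4 lists (y axis, log2 centred on the median gene), with total RNAPII on the left and Ser2 RNAPII on the right of each panel. Grey lines join the values of a gene and the red line joins the medians. Histone genes and the snRNA median run down from total to Ser2, while the snRNA gene RNU6ATAC runs up. The ribosomal protein median runs down less steeply, and matrix genes run both ways.

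Ribosomal protein genes lay below the median gene in Ser2 without exception (66 of 66, median -0.42), while in total 22 of 66 lay above it (median -0.12). Of these 5 fell in the joint test, against 3.2% of all genes. They were RPL34, RPL38, RPS10, RPS14 and RPS27A, by 0.45 to 0.51 on the log2 scale. In the same direction 31 had an unadjusted p under 0.05, against 14.5% of all genes (limma). RPL34, a protein of the large subunit, had 28.1 RPM at 22 h against 43.8 RPM at 19 h in total and 15.6 RPM at 22 h against 38.5 RPM at 19 h in Ser2. With the trend removed 13 fell, against 8.15% of all genes, and the medians were -0.11 in total and -0.19 in Ser2. When a background density was subtracted, they were +0.01 and -0.24. Among 42 genes of the RNAPII machinery, medians were -0.07 and -0.12, and ELL2, an elongation factor, was the 1 gene that passed, at 167 RPM at 22 h against 267 RPM at 19 h in total (-0.50 ± 0.12, adjusted p = 0.0411). Of these 42, 1 rose and 4 fell with the trend removed, against 7.76% and 8.15% of all genes. POLR2A, which encodes RPB1 itself, had 82.6 RPM at 22 h against 80.5 RPM at 19 h in total and 43.9 RPM at 22 h against 74.0 RPM at 19 h in Ser2, or +0.37 and -0.12 (adjusted p = 0.685, and 0.0213 with the trend removed).

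Chaperones and enzymes of the endoplasmic reticulum stood above the median gene, and how many passed the test depended on the scale. Of 19 measured genes of the unfolded protein response, 16 were above it in both antibodies, against 36.6% of all genes, with medians of +0.26 in total and +0.30 in Ser2. In the limma test 1 rose and 1 fell, against 8.43% and 3.2% of all genes. At an unadjusted p under 0.05, 10 were higher and 1 lower, against 16.2% and 14.5% of all genes (limma). With the density trend removed 11 of the 19 rose and 1 fell, against 7.76% and 8.15% of all genes, and the medians were +0.27 in total and +0.35 in Ser2. HSPA5, the chaperone BiP, had 37.9 RPM at 22 h against 37.7 RPM at 19 h in total and 24.0 RPM at 22 h against 31.1 RPM at 19 h in Ser2, giving +0.34 and +0.26 (adjusted p = 0.196). PDIA4, a disulfide isomerase, was at +0.45 and +0.65 (adjusted p = 0.0732), and MANF, a secreted chaperone, at +0.41 and +0.45 (adjusted p = 0.0541). These 3 were among the genes that rose with the trend removed (adjusted p = 0.00201, 0.00655 and 0.0025). SEL1L, of the degradation complex, rose (0.39 ± 0.10, adjusted p = 0.0425), and ERN1, the sensor IRE1, fell (-0.36 ± 0.09, adjusted p = 0.0369).

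ATR itself had 62.4 RPM at 22 h against 82.2 RPM at 19 h in total, which is -0.06 relative to the median gene, and +0.13 in Ser2 (adjusted p = 0.999, limma). CHEK1, its effector kinase, was at -0.12 in total and -0.10 in Ser2 (adjusted p = 0.415), and CDKN1A, the p53-induced CDK inhibitor p21, at -0.15 and -0.24 (adjusted p = 0.142). Over 29 measured checkpoint and repair genes the medians were -0.11 in total and -0.06 in Ser2. In the limma test 0 passed in either direction, where 8.43% of all genes rose and 3.2% fell. At an unadjusted p under 0.05, 1 was higher and 9 were lower, against 16.2% and 14.5% of all genes (limma). Once the trend was removed, 1 rose and 2 fell, against 7.76% and 8.15% of all genes.

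The largest increases by rank belonged to long, sparsely covered genes. The 12 genes that led the higher side had a median span of 278 kb and densities of 0.060 to 0.190 RPM per kb, with changes of +1.64 to +2.06 in total and +1.79 to +2.76 in Ser2. LINC02882, a long noncoding RNA gene, had 36.9 RPM at 22 h against 10.8 RPM at 19 h in total and 62.6 RPM at 22 h against 17.3 RPM at 19 h in Ser2. NPAS3, a neuronal transcription factor gene, had 117 RPM at 22 h against 41.1 RPM at 19 h in total and 197 RPM at 22 h against 69.6 RPM at 19 h in Ser2. The 12 changes were larger in DMSO than in ATRi for 12 genes in total and for 8 in Ser2, and with the density trend removed they came to +0.48 to +1.17 in total and +0.07 to +0.98 in Ser2. Of 418 genes over 300 kb, 195 rose and 7 fell in the limma test, where 8.43% and 3.2% of all genes did. With the trend removed 97 rose and 50 fell, where 7.76% and 8.15% of all genes did. Common fragile site genes, which are very long and replicate late, showed the same course: 10 of 17 measured genes rose and 1 fell, and with the trend removed 6 rose and 1 fell. PDE4D, a phosphodiesterase gene, stood at 228 RPM at 22 h against 96.9 RPM at 19 h in total (1.64 ± 0.11, adjusted p = 0.000229), and WWOX, a tumour suppressor gene, at 166 RPM at 22 h against 87.3 RPM at 19 h (1.45 ± 0.15, adjusted p = 0.00114). The other 8 that rose were NRXN3, NFIA, DAB1, NEGR1, MAGI2, EXOC4, IMMP2L and NBEA, by 0.56 to 1.23, of which NRXN3, NFIA, EXOC4 and NBEA passed with the trend removed too. The deposited values do not separate background reads from RNAPII. Among genes of at least 0.5 RPM per kb the median of the fragile site list in total was -0.06.

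Among denser genes, a rule added after the values were seen, PIF1 and TERT stood with the mitotic genes at the top. PIF1, a helicase active at telomeres and forks, had 9.70 RPM at 22 h against 5.11 RPM at 19 h in total and 5.88 RPM at 22 h against 4.19 RPM at 19 h in Ser2 (1.10 ± 0.14, adjusted p = 0.00373, limma). TERT, the telomerase subunit, had 89.2 RPM at 22 h against 62.0 RPM at 19 h in total and 59.3 RPM at 22 h against 53.5 RPM at 19 h in Ser2 (0.78 ± 0.08, adjusted p = 0.00159). Reads from the line's introduced copy cannot be told apart from those of the resident gene.

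**Figure D4:**
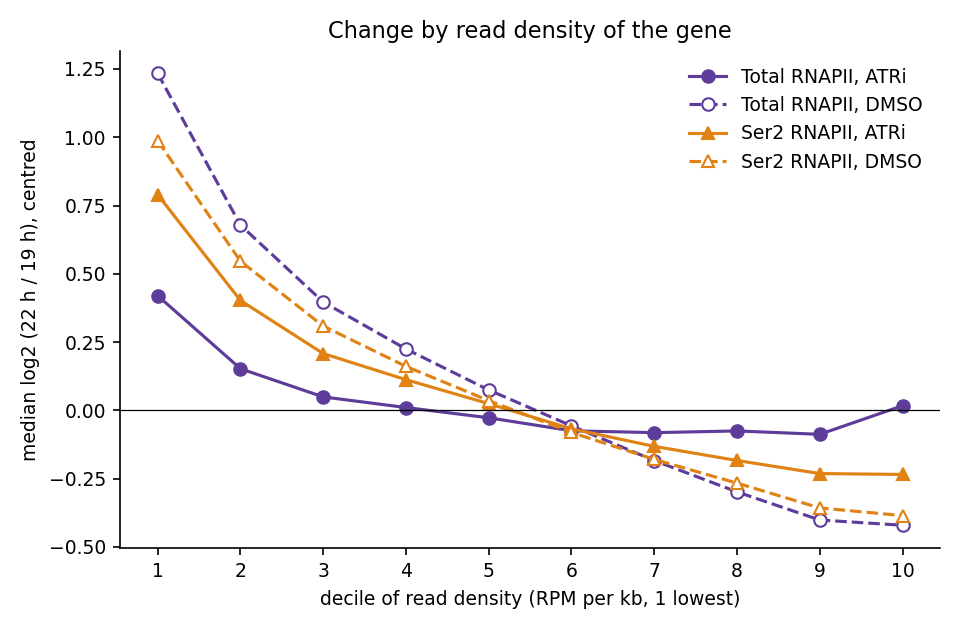
Median change between 22 h and 19 h (y axis, log2 centred on the median gene) by decile of read density (x axis, 1 lowest). Filled symbols and solid lines are ATRi, open symbols and dashed lines DMSO, circles total and triangles Ser2 RNAPII. The lowest decile stands at +0.42 (total) and +0.79 (Ser2) in ATRi and at +1.23 and +0.99 in DMSO.

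Set beside the same hours in DMSO, no gene's change was shown to differ, and the replication genes had medians below the median gene in both arms. In the fit over the 12 treated libraries, 0 genes (0%) had a change in ATRi above that in DMSO and 0 (0%) below it at an adjusted p under 0.05 (limma). The unadjusted p was under 0.05 for 1252 genes (10.4%) above and 1687 (14%) below. Other tools called 0 and 0 (edgeR) and 1 and 14 (DESeq2, which gave an adjusted p for only 2236 of the 12040 genes). That count rested on single libraries: without a Ser2 22 h library of either treatment it was 2855 to 2869 above and 3114 to 3115 below. Without a total 22 h library it was 550 to 569 above and 518 to 519 below. Without a Ser2 19 h library it was 30 above and 615 or 616 below. The mitotic genes had medians of +0.25 in total and +0.06 in Ser2 in ATRi, against +0.01 and -0.05 in DMSO, and the ATRi change exceeded the DMSO change in 65 of 81 genes (80.2%) in total and 69 (85.2%) in Ser2. It did so in 53 of 74 replication genes (71.6%) in total and 41 (55.4%) in Ser2, and in 46.0% and 48.5% of all genes. With the density trend removed the shares were 69.1% and 67.9% for mitotic genes, 64.9% and 43.2% for replication genes, and 51.4% and 53.3% for all genes. The replication genes had medians of -0.18 and -0.23 in ATRi, against -0.37 and -0.28 in DMSO. With the density trend removed, the mitotic medians were +0.31 and +0.21 in ATRi against +0.27 and +0.19 in DMSO, and the replication medians -0.14 and -0.12 in ATRi against -0.16 and -0.10 in DMSO.

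Single genes showed where the arms lay. CCNB1 had 23.0 RPM at 22 h against 16.98 RPM at 19 h in ATRi, and 12.8 RPM at 22 h against 16.3 RPM at 19 h in DMSO (total). The centred changes were +0.76 in ATRi and +0.57 in DMSO, and the difference over both antibodies in the joint fit was 0.31 ± 0.15 (unadjusted p = 0.0663, adjusted p = 0.231, limma). PLK1 changed by +0.85 in ATRi and +0.49 in DMSO in total, with a joint difference of 0.36 ± 0.14 (adjusted p = 0.177), and NEK2 by +0.72 in ATRi and +0.96 in DMSO. EGR1 ranked first among genes whose change was higher in ATRi, at -0.60 in total and -0.94 in Ser2 in ATRi against -1.43 and -1.74 in DMSO, a joint difference of 0.85 ± 0.13 (unadjusted p = 0.000234, adjusted p = 0.148). COL6A3, a microfibrillar collagen, had 372 RPM at 22 h against 390 RPM at 19 h in total in ATRi and differed by 0.65 ± 0.12 between the arms in the joint fit (unadjusted p = 0.000556, adjusted p = 0.148). On the other side FBLN2, a fibulin of the matrix, rose by 1.01 ± 0.14 in ATRi (adjusted p = 0.00423) but stood at +2.18 in total in DMSO, against +0.94 in ATRi, and did not pass with the density trend removed (adjusted p = 0.51).

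**Figure D5:**
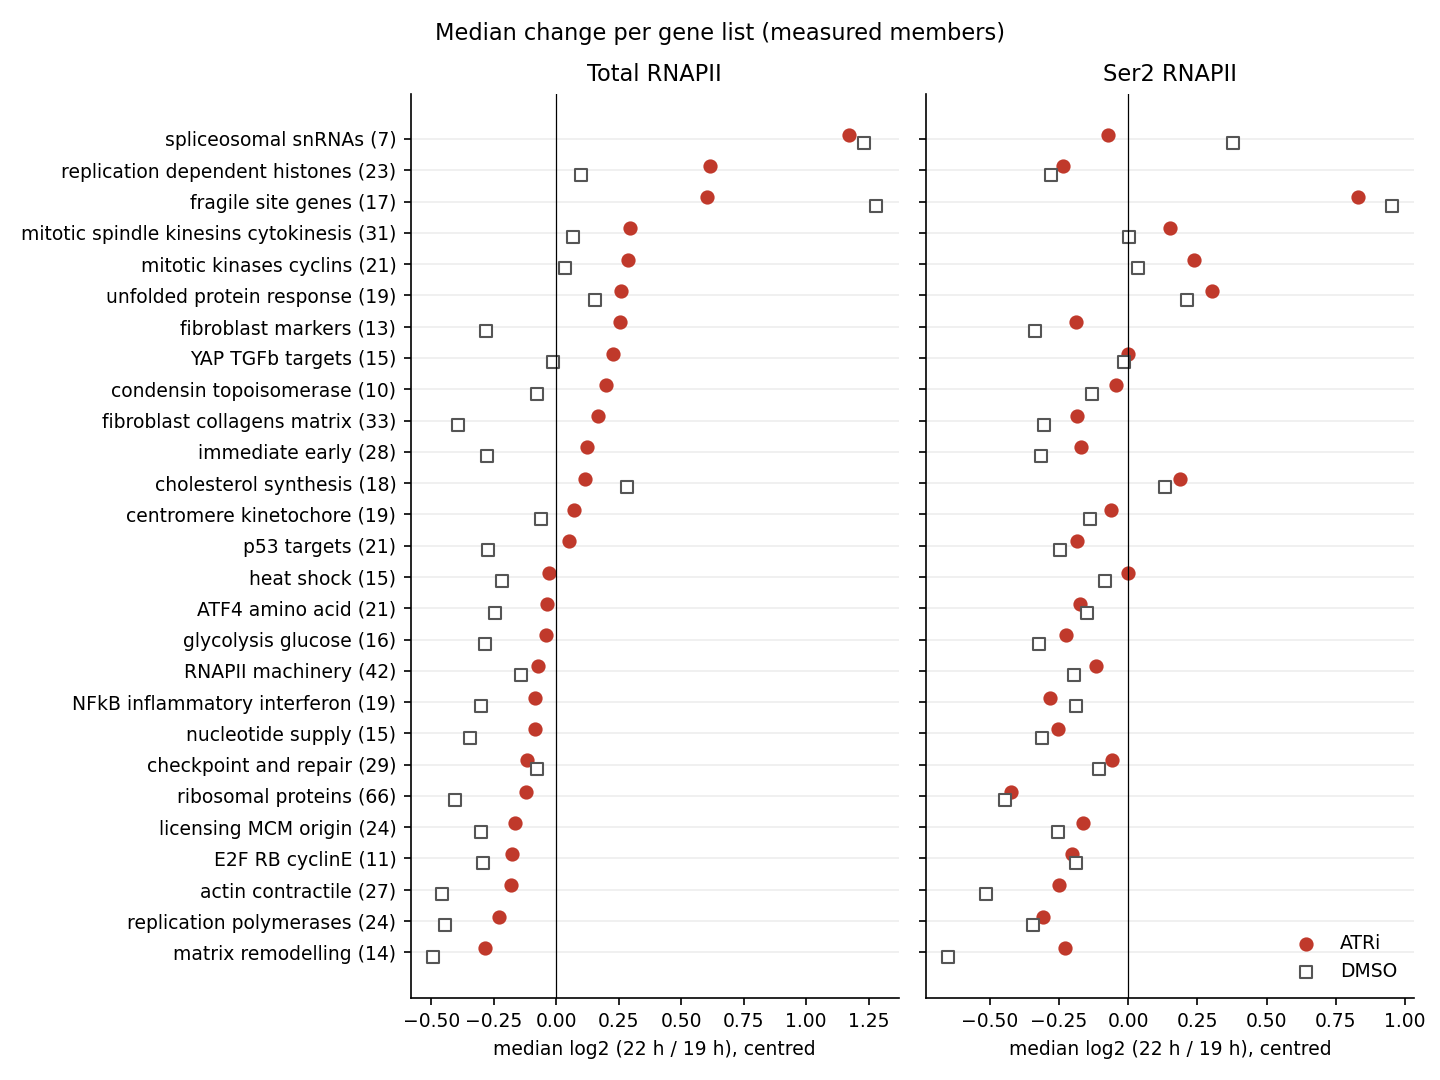
Median change between 22 h and 19 h per gene list (x axis, log2 centred on the median gene; rows are lists with the number of measured genes), total RNAPII in the left panel and Ser2 RNAPII in the right; red circles are ATRi and open squares DMSO. Most lists lie on the same side of 0 in both arms in Ser2, while in total the ATRi medians of matrix, histone and mitotic lists lie to the right of those in DMSO.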

How the data were processed

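Chromatin immunoprecipitation for total and Ser2-phosphorylated RNAPII was sequenced from BJ hTERT fibroblasts, 14 libraries with 1 library per group. The authors deposited 1 table of RPM (a gene's reads scaled to the library's size) per gene over the whole gene span, on hg38 per the submitters' processing notes, which name Bowtie2 2.3.3.1 and SAMtools 1.4; the step that counted reads is not given in the sources used here. The RPM values of the deposited table were whole multiples of 1 read (100% of values within a tolerance of 0.01 reads), which gave the library sizes and the reads per gene. The labels' protocol text names antibodies to phospho-H2A.X and H3, while the sample labels name the RNAPII antibodies; the sample labels were followed. Genes were named by position against RefSeq GRCh38.p14 (Jaccard index of at least 0.8, or at least 0.5 with 1 end within 100 bp), which named 10736 genes (86.4%).

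Changes were log2 ratios with a pseudocount of 0.5 RPM, centred on the median of the 12040 genes that passed a minimum of 1 RPM on average over the 4 ATRi libraries. With 1 library a group they have no replicate check, and intervals are exact binomial 95% limits for counting only. The density trend was removed by a lowess fit (span 0.3) on log2 RPM per kb. Tests used limma 3.58.1 (trend, Benjamini-Hochberg) on log2(RPM + 0.5) centred per library, which left the median gene at -0.04, with the antibodies in place of replicates; edgeR 4.0.16 and DESeq2 1.42.0 were run on the recovered reads as alternatives. A fold change on this scale understates that of low genes. The change and limma steps were also run on simulated data with known changes. Those data held only counting noise or independent noise, with no density trend and no link between the antibodies. They therefore do not bear on either of these limits.

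Named genes were the 12 highest and 12 lowest with the same sign in both antibodies, 3 genes per list by change and 3 by level, the 6 highest and lowest in Ser2 minus total and in ATRi minus DMSO, and ATR, CHEK1, POLR2A, CDKN1A, E2F1 and CCNB1; members of the gene lists that passed the test on the centred scale were named too, apart from 2 that are not reported here. Genes over 300 kb were counted only. A further ranking of genes with at least 0.5 RPM per kb was added after seeing the data. Members and gene lists were chosen with earlier results of these data known. Promoter sequences come from RefSeq (GRCh38.p14).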

Additional observations from a re-analysis of the deposited data

How the results depend on the processing

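The number of genes past 1.5-fold moved with the scaling and the fold. In total RNAPII, 489 genes higher became 142 with no centring, 103 with the density trend removed, 105 among genes of at least 0.5 RPM per kb (added after seeing the data), 1377 at the lower and 105 at the higher of 2 other fold thresholds. The 66 lower became 1244, 120, 40, 724 and 2 under the same alternatives and 323 with a background density subtracted. In Ser2, 1097 higher became 177, 66, 73, 2339 and 343. The 92 lower became 6699, 155, 45, 1182 and 1, and 158 with size factors and 284 with background subtracted. In the joint fit, 1015 higher became 263 with no centring, 103 with background subtracted and 457 to 2366 with 1 library left out. The 385 lower became 6840, 27 and 37 to 2225, and 241 with size factors, 636 with quantile normalization, 981 with the trend removed, 722 without the 16 h libraries, 579 by edgeR and 232 by DESeq2. For the ATRi change minus the DMSO change, 0 higher and 0 lower became 37 and 417 without the 16 h libraries, and 0 to 2869 and 0 to 3115 with 1 library left out. By DESeq2 they became 1 and 14, among the 2236 genes to which it gave an adjusted p. CENPE in Ser2 turned to -0.017 with no centring, and with the trend removed CHD5 turned to -0.015 in total and -0.53 in Ser2, FBLN2 to -0.27, VWF to -0.0080 and MITF to -0.088 in Ser2. The cause of these moves was not tested. Pseudocounts of 0.1 and 1 and no filter on low values moved none of the 208 changes of named genes beyond counting error, while no centring moved 207, background subtraction 129 and trend removal 120. No paired analysis was possible because each group was 1 library and the labels pair none. The limits are 1 library a group, 2 residual degrees of freedom, unequal shares of reads in genes between the hours, no input library used here, and levels summed over whole spans, so pausing and elongation within a gene cannot be told apart.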

Other observations

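Few genes of the stress and metabolic lists passed the test between 22 h and 19 h in ATRi, where 8.43% of all genes rose and 3.2% fell. Of 21 measured p53 targets 2 rose and 2 fell (medians +0.05 in total and -0.19 in Ser2), so the share that rose was near that of all genes. The share that fell was above that of all genes in the p53, amino acid and glycolysis lists, though it rested on 2 genes in each. SESN1, a sestrin of the antioxidant response, rose by 0.56 and GADD45A, a DNA damage response gene, fell by 0.46 on the log2 scale (adjusted p = 0.0231 and 0.0415, limma). TNFRSF10B, a death receptor gene, fell by 0.34 (adjusted p = 0.0477). SPATA18, which also rose, did not pass with the density trend removed (adjusted p = 0.50). Of 21 amino acid response genes, SHMT2 (-0.63), the mitochondrial enzyme of serine use, and SLC7A11 (-0.46), the cystine transporter, fell. PSAT1 (0.58), of serine synthesis, rose, but not with the trend removed (adjusted p = 0.40). Of 16 glycolysis genes PFKFB4 and HK2 fell and 0 rose (medians -0.04 and -0.22), and HK2 did not pass with the trend removed (adjusted p = 0.069). Of 18 cholesterol synthesis genes INSIG1 and SREBF2 rose and 0 fell (medians +0.11 and +0.19), and SREBF2 did not pass with the trend removed (adjusted p = 0.21). Of 15 YAP and TGF-beta targets PMEPA1 and TGFBR1 rose and 0 fell (medians +0.23 and 0.00). PMEPA1 did not pass with the trend removed (adjusted p = 0.056), where 4 of that list rose and 1 fell, against 7.76% and 8.15% of all genes. Of 15 heat shock genes 0 passed in either direction (limma, with 0 higher and 2 lower by the unadjusted p). With the trend removed 2 of them rose, against 7.76% of all genes.

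Genes on chromosome X (342 tested) had medians of -0.04 in total and 0.03 in Ser2 between the hours in ATRi, but -0.19 and -0.31 once the density trend was removed, and -0.54 and -0.43 on that scale in DMSO. No autosome's median passed 0.10 in size on either scale in ATRi.

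MIR24-2, the gene of a microRNA hairpin on chromosome 19, had 3.93 RPM at 22 h against 2.64 RPM at 19 h in total and 2.26 RPM at 22 h against 1.71 RPM at 19 h in Ser2, +0.82 and +0.95 relative to the median gene (adjusted p = 0.0108, limma). PIM1, a serine kinase gene, was at +1.09 in total and +0.21 in Ser2, and CXCL12, a chemokine gene, at +0.85 and +0.01. These 3 were chosen after their values were seen.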
